A study of Mus musculus with 9 samples.

Results

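The choroid plexus genes with klotho are a set of 10 protein-coding genes, Ttr, Kl, Prlr, Folr1, Clic6, Slc4a5, Aqp1, Otx2, Sostdc1 and Calml4, named by gene symbol, with earlier results of these data known, and read from the gene-level count table. All 10 were found among the 49315 genes of that table, and all 10 were among the 18492 genes that passed the filter on low counts. The libraries were polyA-selected RNA-seq with an ERCC spike-in from the brains of 9 wild-type male C57BL/6J mice, each library made from 1 individual brain and labelled whole tissue. The young group held 5 mice, aged 3 months in the labels, and the old group held 4 mice aged 33 months, replicates 1, 3, 4 and 5. The comparison asked how transcript levels in the brain differ between young and old mice. Whole brains were used, so a lower level of a choroid plexus gene can come from fewer choroid plexus cells in the sample or from less RNA per cell, and the libraries cannot tell these apart.

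The choroid plexus is a folded epithelium inside the brain ventricles that secretes the cerebrospinal fluid and forms a barrier between blood and that fluid. Its epithelial cells export transthyretin, move water, bicarbonate, chloride and sodium across the cell, take up folate for the brain and carry receptors for circulating hormones. Klotho, the product of Kl, is a membrane protein that is also released into the fluid, acts as co-receptor for the hormone FGF23, and mice that lack it age early and die young.

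Library totals ran from 14229259 to 21150439 counts, and levels are given below as CPM, the counts of a gene relative to the TMM-scaled library total. The 10 genes together made up 0.0464% to 0.0776% of all counts of a library. Their summed level was 568.1, 630, 734, 564 and 697 CPM in young mice 1 to 5 and 645, 709, 777 and 465 CPM in old mice 1, 3, 4 and 5. The ages overlapped, and old mouse 5 was the lowest and old mouse 4 the highest of the 9. Ttr made up 84.2% to 87.3% of this sum, so the sum mostly follows that 1 gene. Without Ttr, the other 9 genes had a mean sum of 94.8 ± 9.90 CPM in the young mice (SD, n = 5, 83.9 to 110 CPM) and of 88.1 ± 12.8 CPM in the old (SD, n = 4, 70.3 to 98.7 CPM). The list of 58 other choroid plexus epithelium genes, of which 55 passed the filter, had sums from 1236 to 1380 CPM (young) and from 1070 to 1357 CPM (old), and old mouse 5 was again lowest.

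Other tissues that can be dissected with the brain were looked at through their markers. Summed levels of the ependyma list were 177 to 223 CPM (young) and 203 to 269 CPM (old), with 14 of 14 genes kept, none at 0 in all mice, a median log2 fold change of -0.42 and 1 gene called, Ccdc153, lower in the old mice. The leptomeninges list kept 14 of 14 genes, with a median log2 fold change of 0.14, 10 above and 4 below 0, and Col3a1 called lower. Its sums were 263 to 297 CPM (young) and 237 to 355 CPM (old). Of the pituitary markers, 3 of 10 passed the filter and Prl and Gh did not, and the list had sums of 6.47 to 8.11 CPM (young) and 4.17 to 5.43 CPM (old), with no overlap, a median log2 fold change of -0.51 over the 3 kept, all 3 below 0, and none called. Of the pineal markers 4 of 8 passed and Gngt1 was at 0 in every mouse, and the list had sums of 14.3 to 17.9 CPM (young) and 11.1 to 14.6 CPM (old), a median of -0.33 over the 4 kept, all 4 below 0, and none called. Transcripts of red blood cells had sums of 87.1 to 117 CPM (young) and 129 to 428 CPM (old), with 6 of 7 genes kept and 3 called higher, and the endothelium list, 8 of 8 kept and 5 called higher, summed to 245 to 260 and 278 to 321 CPM. By the test described below, 11% of all genes were called, 6.09% higher and 4.89% lower in the old mice. The part of these lists in the results below was not tested beyond the values given there.

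None of the 10 genes differed between the ages by edgeR's quasi-likelihood test at a Benjamini-Hochberg adjusted p below 0.05 over all genes, the threshold for a call throughout, where 11% of all 18492 genes were called (6.09% higher and 4.89% lower in the old mice). By the unadjusted p 2 of the 10 lay below 0.05, Prlr and Aqp1, against 25.5% of all genes. DESeq2 on the same counts, which called 12.5% of all genes, and limma on log2(TPM + 1), which called 3.21%, each called 0 of the 10 as well. The ages overlapped in all 10 genes, while they did not overlap in 12.6% of all genes. The median log2 fold change, old over young, of the 10 genes was -0.09, with 4 above and 6 below 0, beside a median of -9.2e-05 over all genes. It was -0.00014 without old mouse 5 and -0.16 without old mouse 3. The count is sensitive to the model. Without the filter on low counts 3 of the 10 were called, Aqp1 higher and Kl and Prlr lower, with 8% of all genes called, and leaving out single mice moved the count between 0 and 1. Prlr was called without young mouse 1 (8.47% of all genes called) or without old mouse 3 (9.55%), and Aqp1 without old mouse 1 (8.91%), with the values given at each gene.

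**Figure D1:**
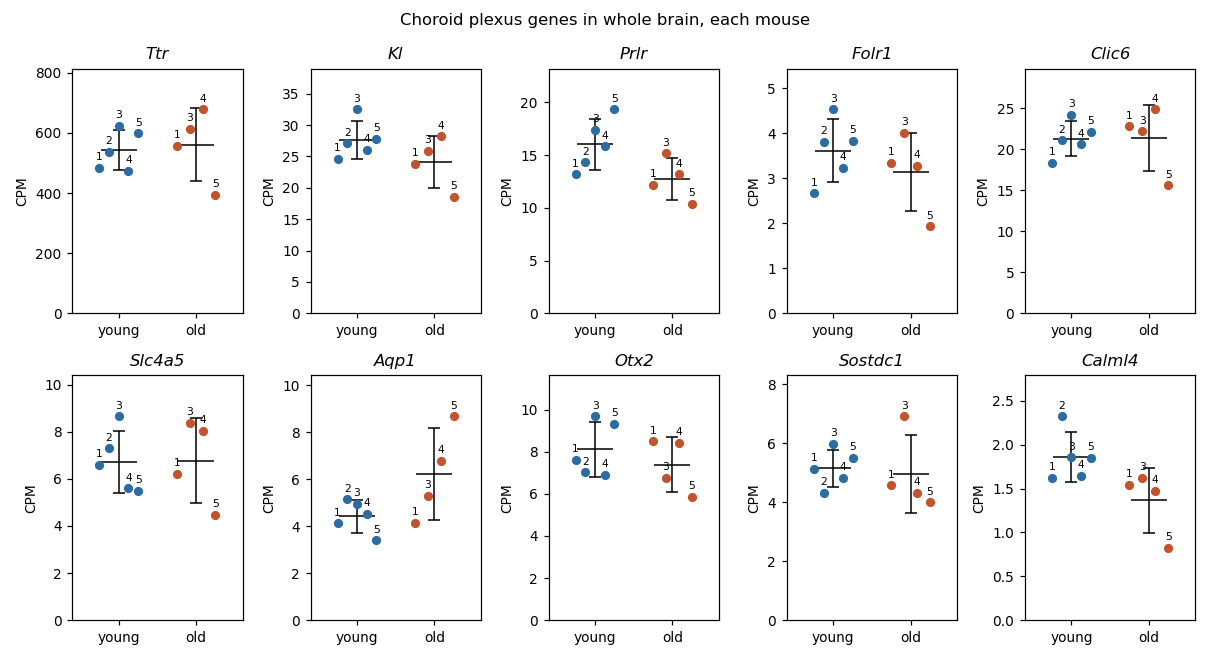
CPM of each of the 10 genes in every mouse, 1 panel a gene with its own vertical axis from 0, young in blue and old in orange, numbers giving the replicate and black bars the mean ± SD (n = 5 young, n = 4 old). Old mouse 5 is the lowest point in 9 panels and the highest in the panel of Aqp1, and in every panel the ages overlap.

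Ttr encodes transthyretin, the carrier of thyroxine and of retinol-binding protein, and is the most abundant product of the choroid plexus epithelium (ENSMUSG00000061808, chromosome 18, 20665280 to 20674321, GRCm38, plus strand). It stood at 484, 537, 624, 475 and 598 CPM in young mice 1 to 5 and at 557, 613, 678 and 395 CPM in old mice 1, 3, 4 and 5. The lowest and the highest of the 9 mice were both old, and the young mice lay between them. The log2 fold change was 0.05 (SE 0.17, 95% interval -0.35 to 0.44, adjusted p = 0.90 by edgeR's quasi-likelihood test), an interval that holds moderate differences in either direction. The SD of log2 CPM was 0.34 among the old and 0.18 among the young mice.

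Kl, the gene of klotho, was at 24.7, 27.1, 32.5, 26.1 and 27.8 CPM in the young mice and at 23.9, 25.9, 28.2 and 18.5 CPM in old mice 1, 3, 4 and 5 (ENSMUSG00000058488, chromosome 5, 150952607 to 150993817, plus strand). Young mouse 3 was the highest and old mouse 5 the lowest, and old mouse 4 lay above 4 of the 5 young mice. The log2 fold change was -0.19 (SE 0.11, 95% interval -0.44 to 0.06, adjusted p = 0.33, edgeR), which corresponds to 0.876 times the young level. Without old mouse 5 it was -0.08, and without old mouse 4 it was -0.28, both without a call. Without the filter on low counts it was -0.20 with an adjusted p of 0.031 by edgeR.

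Prlr encodes the prolactin receptor, a cytokine-type receptor by which the epithelium binds circulating prolactin (ENSMUSG00000005268, chromosome 15, 10177238 to 10349180, plus strand). Its level was 13.2, 14.3, 17.4, 15.8 and 19.3 CPM in the young mice and 12.2, 15.2, 13.2 and 10.4 CPM in old mice 1, 3, 4 and 5. Young mouse 5 was the highest, old mouse 5 the lowest, and old mouse 3 lay above the 2 lowest young mice. The log2 fold change of -0.33 (SE 0.12, 95% interval -0.59 to -0.07, unadjusted p = 0.015) did not pass after adjustment (adjusted p = 0.094, edgeR), and DESeq2 gave -0.33 with an adjusted p of 0.064. It passed without young mouse 1 (-0.39, adjusted p = 0.048, edgeR) and without old mouse 3 (-0.42, adjusted p = 0.043, edgeR), and was -0.25 without old mouse 5. The gene Gm21973 overlaps Prlr on the same strand, where gene-level counting can leave out or misplace shared reads.

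Aqp1 encodes aquaporin 1, the water channel of the apical membrane of the epithelium, which red blood cells and some endothelia also carry (ENSMUSG00000004655, chromosome 6, 55336432 to 55348555, plus strand). It was at 4.13, 5.14, 4.95, 4.54 and 3.40 CPM in the young mice and at 4.14, 5.29, 6.78 and 8.69 CPM in old mice 1, 3, 4 and 5. Old mice 3, 4 and 5 lay above all young mice, and old mouse 1 lay within the young range. The log2 fold change was 0.49 (SE 0.19, 95% interval 0.08 to 0.90, unadjusted p = 0.021, adjusted p = 0.12, edgeR). It was 0.65 with an adjusted p of 0.018 without old mouse 1, and 0.29 with an adjusted p of 0.35 without old mouse 5. Red blood cell transcripts summed to 265, 129, 428 and 171 CPM and the endothelium list to 316, 286, 321 and 278 CPM in old mice 1, 3, 4 and 5, and their part in the level of Aqp1 was not tested.

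The other transport genes had differences near 0 or intervals that span it. Slc4a5, a sodium bicarbonate cotransporter of the apical membrane (ENSMUSG00000068323, chromosome 6, 83219828 to 83304945, plus strand), was at 6.59, 7.30, 8.66, 5.60 and 5.50 CPM in the young and 6.21, 8.39, 8.04 and 4.46 CPM in old mice 1, 3, 4 and 5. Old mice 3 and 4 lay in the upper part of the young range and old mouse 5 below it, and the log2 fold change was 0.01 (SE 0.18, 95% interval -0.38 to 0.40, adjusted p = 0.98, edgeR). Clic6, a member of the chloride intracellular channel family (ENSMUSG00000022949, chromosome 16, 92485736 to 92541243, plus strand), was at 18.3, 21.1, 24.2, 20.6 and 22.2 CPM in the young and 22.8, 22.2, 24.9 and 15.6 CPM in the old mice. The highest and the lowest of the 9 values were both from old mice, and the log2 fold change was 0.01 (SE 0.12, 95% interval -0.25 to 0.28, adjusted p = 0.96, edgeR). The gene 2410124H12Rik overlaps Clic6 on the same strand.

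Folr1 encodes folate receptor alpha, which carries folate across the epithelium into the cerebrospinal fluid (ENSMUSG00000001827, chromosome 7, 101858331 to 101870788, minus strand). Its level was 2.67, 3.82, 4.54, 3.24 and 3.83 CPM in the young and 3.35, 4.02, 3.28 and 1.94 CPM in old mice 1, 3, 4 and 5. Old mice 1, 3 and 4 lay within the young range and old mouse 5 below it. The log2 fold change was -0.20 (SE 0.20, 95% interval -0.61 to 0.22, adjusted p = 0.58, edgeR) and -0.02 without old mouse 5. Counts were 33 to 69 per library, and Anapc15 overlaps the gene on the opposite strand, whose reads cannot be told apart where counting did not use strand.

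Otx2, the homeobox transcription factor that specifies the choroid plexus in development and whose protein the adult epithelium secretes (ENSMUSG00000021848, chromosome 14, 48657677 to 48673819, minus strand), was at 7.63, 7.03, 9.69, 6.91 and 9.33 CPM in the young and 8.50, 6.77, 8.43 and 5.87 CPM in old mice 1, 3, 4 and 5. Old mice 1 and 4 lay among the young mice and old mice 3 and 5 below them, with a log2 fold change of -0.12 (SE 0.13, 95% interval -0.40 to 0.16, adjusted p = 0.62, edgeR). It was -0.02 without old mouse 5 and -0.19 without old mouse 1. Otx2os1 lies on the opposite strand and Gm49154 on the same strand. Sostdc1, a secreted antagonist of BMP and Wnt signals (ENSMUSG00000036169, chromosome 12, 36314139 to 36318452, plus strand), was at 5.12, 4.32, 5.98, 4.83 and 5.50 CPM in the young and 4.57, 6.91, 4.32 and 3.99 CPM in the old mice. Old mouse 3 was the highest of all 9 and old mouse 5 the lowest, and the log2 fold change was -0.07 (SE 0.16, 95% interval -0.39 to 0.26, adjusted p = 0.84, edgeR).

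Calml4, a calmodulin-like protein (ENSMUSG00000032246, chromosome 9, 62858080 to 62875921, plus strand), was the least abundant, at 1.62, 2.32, 1.86, 1.64 and 1.85 CPM in the young and 1.54, 1.62, 1.48 and 0.822 CPM in old mice 1, 3, 4 and 5. Old mouse 3 just exceeded the lowest young value, and old mice 1, 4 and 5 lay below all the young mice. The log2 fold change was -0.44 (SE 0.22, 95% interval -0.90 to 0.02, adjusted p = 0.21, edgeR), and -0.26 without old mouse 5. With 14 to 42 counts per library this is the least precisely counted of the 10 genes, and Gm10653 overlaps it on the opposite strand.

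**Figure D2:**
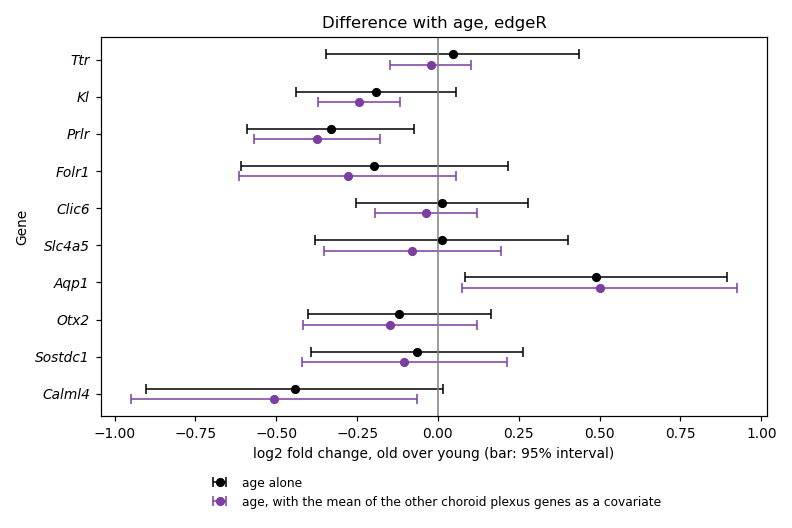
Log2 fold change, old over young, of the 10 genes with its 95% interval from edgeR, with age alone (black) and with the mean log2 CPM of the 55 other choroid plexus genes as a covariate (purple). With age alone the intervals of Prlr and Aqp1 exclude 0, though neither passed the adjusted threshold, and with the covariate those of Kl, Prlr, Aqp1 and Calml4 exclude 0 and Kl and Prlr passed it.

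The sequences upstream of Kl, Prlr and Aqp1, the 3 genes called in at least 1 of the alternative fits, are shown to compare how many CG dinucleotides, the sites of DNA methylation, precede each start. Each is the 250 bases before the RefSeq start in GRCm38.p6, 5′ to 3′ on the gene's own (plus) strand, in lower case with CG in capitals. The windows overlap no annotated exon of GENCODE M21, and for Prlr the first of 3 listed starts is given.
Kl, chr5:150952357-150952606: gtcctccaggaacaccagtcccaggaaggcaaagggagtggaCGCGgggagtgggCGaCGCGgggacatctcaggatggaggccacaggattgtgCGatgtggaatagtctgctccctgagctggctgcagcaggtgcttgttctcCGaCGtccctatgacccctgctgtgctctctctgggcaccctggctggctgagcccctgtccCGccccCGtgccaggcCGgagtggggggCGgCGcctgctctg
Prlr, chr15:10176988-10177237: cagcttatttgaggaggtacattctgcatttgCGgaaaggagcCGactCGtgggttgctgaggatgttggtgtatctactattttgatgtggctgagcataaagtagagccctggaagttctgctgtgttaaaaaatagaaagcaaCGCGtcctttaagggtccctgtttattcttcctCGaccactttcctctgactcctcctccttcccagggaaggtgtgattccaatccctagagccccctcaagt
Aqp1, chr6:55336049-55336298: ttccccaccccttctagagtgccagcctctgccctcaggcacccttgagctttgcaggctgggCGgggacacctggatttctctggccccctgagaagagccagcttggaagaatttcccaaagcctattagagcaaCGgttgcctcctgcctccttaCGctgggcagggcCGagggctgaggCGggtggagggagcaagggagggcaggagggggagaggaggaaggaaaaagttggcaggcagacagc
The window of Kl holds 13 CG dinucleotides at 66.8% G and C, that of Prlr 6 at 48% and that of Aqp1 5 at 62%, where the median of 32851 RefSeq windows of this length is 6 at 52.4%. At least as many CG dinucleotides as in the Kl window were found in 31.5% of all windows. The table held windows for 6 of the 10 genes, 11 in all. The core bound by OTX homeodomains, GGATTA on either strand, was in 1 of these 11, 211 bases before the third start of Otx2 itself, in 5 of the 62 windows of the other choroid plexus genes and in 6.25% of all windows. These letters are a description of the windows and were not linked to the levels.

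Per gene length, in the deposited TPM values, the order of the mean levels over the 9 mice was Ttr at 1126 TPM, Clic6 at 13.6, Sostdc1 at 7.196, Kl at 7.01, Otx2 at 5.77, Aqp1 at 4.93, Folr1 at 3.72, Slc4a5 at 2.92, Prlr at 2.37 and Calml4 at 1.13 TPM. Ttr was above Clic6 by 82.7-fold as a geometric mean over mice. Clic6 lay above Sostdc1, Kl above Otx2, Folr1 above Slc4a5 and Prlr above Calml4 in all 9 mice. Sostdc1 lay above Kl in 5 of 9 mice, Otx2 above Aqp1 in 6, Aqp1 above Folr1 in 7 and Slc4a5 above Prlr in 7, so the order of these neighbours was not kept across mice. The gene lengths behind the TPM values are not stated in the sources used here.

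Over the 9 mice, old mouse 5 included, the 10 genes apart from Aqp1 varied together. Old mouse 5 was the lowest of all 9 mice in 9 of the 10 genes and the highest in Aqp1, and it was also the lowest in 22 of the 55 other choroid plexus genes. Young mouse 3 was the highest young mouse in 7 of the 10. Over the 9 mice, Pearson's r of log2 CPM between pairs was positive for each of the 36 pairs without Aqp1, from 0.32 for Sostdc1 with Otx2 to 0.94 for Ttr with Clic6. Aqp1 had a negative r with each of the other 9, from -0.69 with Calml4 to -0.09 with Slc4a5. These pairs share libraries and scaling, were not computed without old mouse 5 and are given as a description.

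**Figure D3:**
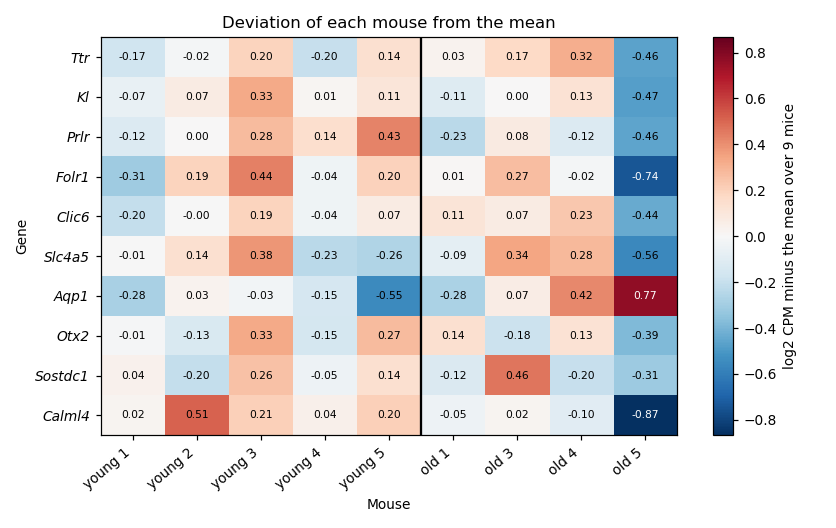
Log2 CPM of each of the 10 genes in each mouse minus that gene's mean over the 9 mice, red above and blue below the mean, with a line between young and old mice. The column of old mouse 5 is below the mean in 9 genes and above it in Aqp1, and that of young mouse 3 is above the mean in 9 genes.

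To see whether the 10 genes follow the amount of choroid plexus RNA in a brain, each was set against the mean log2 CPM of the 55 other choroid plexus genes over the 9 mice, which was 2.67 to 2.88 in the young and 2.62 to 2.98 in the old mice. Of 10 correlations, 5 had an exact permutation p below 0.05 by Pearson's r, all positive, where 1.83% of all genes had one with positive r. Adjusted over all 18492 genes, 0 of the 10, and 0 of all genes, passed (adjusted p of 0.999). For Ttr r was 0.92 (exact permutation p = 0.00041) and rho 0.90 (exact permutation p = 0.0020), and r was 0.82 without old mice 4 and 5, the 2 farthest from the median. Clic6 had an r of 0.85 (exact permutation p = 0.0021) and a rho of 0.80 (exact permutation p = 0.014), with r of 0.69 without these mice. Without them Slc4a5 went from an r of 0.80 to 0.64, Folr1 from 0.75 to 0.90 and Kl from 0.75 to 0.58, all 3 with exact permutation p of 0.011 to 0.015 over the 9 mice. Their rho was 0.70, 0.70 and 0.78 (exact permutation p = 0.043, 0.043 and 0.017). Aqp1 had an r of -0.03 (exact permutation p = 0.93) and a rho of 0.20 (exact permutation p = 0.61), with an r of 0.48 without old mice 4 and 5. Without old mouse 5 alone, 2 of the 10 had a permutation p below 0.05, Ttr (r of 0.88) and Clic6 (0.79), against 3.02% of all genes with positive r. There r was -0.07 for Calml4, 0.15 for Otx2, 0.22 for Prlr and 0.27 for Sostdc1. It was 0.58 for Kl, 0.59 for Folr1, 0.68 for Slc4a5 and 0.70 for Aqp1. Without old mouse 4 alone 7 of the 10 had a permutation p below 0.05, against 1.78% of all genes with positive r. With deviations from the mean of each age, r was 0.93 for Kl, 0.92 for Ttr and 0.77 for Prlr.

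**Figure D4:**
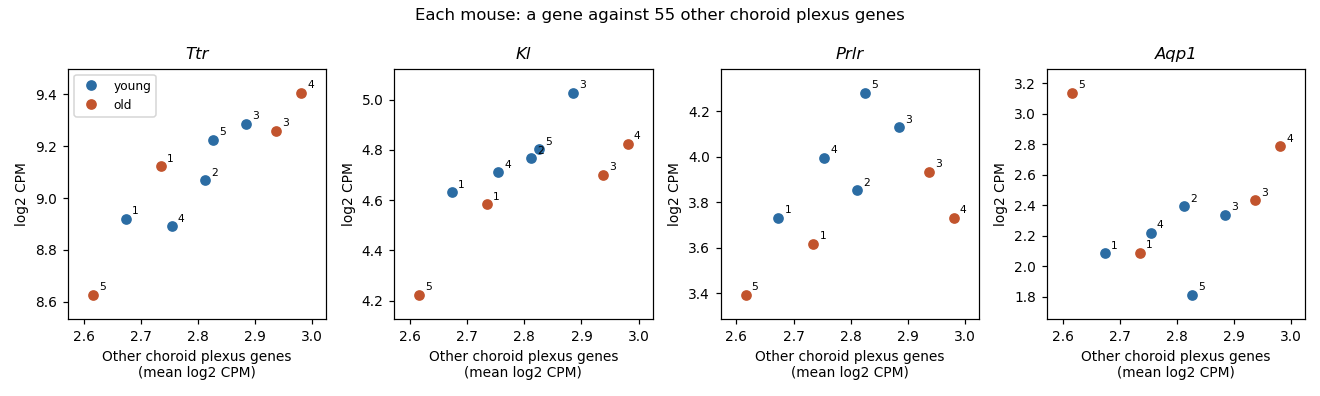
Log2 CPM of Ttr, Kl, Prlr and Aqp1 against the mean log2 CPM of 55 other choroid plexus genes, 1 point a mouse with its replicate number, young in blue and old in orange. Ttr follows the other genes at both ages, the old mice lie below the young mice of like position for Kl and Prlr, and old mouse 5 stands at the lower left for Ttr, Kl and Prlr and at the upper left for Aqp1.

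A level relative to the other choroid plexus genes is the log2 CPM of a gene minus their mean log2 CPM in the same mouse. It takes out how much of the tissue a sample held only as far as those genes come from it. Old mouse 5 was still the lowest of all mice on this scale for Ttr, Kl, Folr1, Clic6, Slc4a5 and Calml4. It was not the lowest for Sostdc1, Otx2 and Prlr, and was the highest for Aqp1. On this scale Kl was at 1.96, 1.95, 2.14, 1.96 and 1.98 in the young and 1.85, 1.76, 1.84 and 1.61 in old mice 1, 3, 4 and 5. All old mice lay below all young mice, a difference of -0.23 (exact permutation p = 0.0079, two-sided, the smallest that 126 splits allow). Calml4 differed by -0.47 with no overlap (-1.94 to -1.53 in the young, -2.71 to -2.01 in the old mice, exact permutation p = 0.0079). Prlr differed by -0.36 with no overlap (1.04 to 1.46 and 0.75 to 0.996, exact permutation p = 0.016). The ages did not overlap in these 3 of the 10 genes, where 5.15% of all genes did not overlap on the same scale, and the permutation p was below 0.05 in 3 of the 10 against 11.3% of all genes. Aqp1 differed by 0.41 with overlap (exact permutation p = 0.16), and Ttr by -0.0018 (exact permutation p = 1.0).

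Adjusted over all 18492 genes, this permutation test called 0 of the 10 genes and 0 of all genes, the adjusted p of Kl and Calml4 being 0.23. Both genes were already at the smallest p the test allows, so no clearer separation of their ages could have lowered it. The absence of calls by this test therefore says nothing about their differences. The covariate fit in edgeR, which adjusts each gene for the same mean, called 2 of the 10, Kl (-0.24, SE 0.06, 95% interval -0.37 to -0.12, adjusted p = 0.015) and Prlr (-0.38, SE 0.09, 95% interval -0.57 to -0.18, adjusted p = 0.015), with 11.2% of all genes called. The relative differences depended on the reference. Against the summed CPM of the other genes the ages overlapped in all 10 genes, and Prlr differed by -0.25 (exact permutation p = 0.063) and Calml4 by -0.37 (exact permutation p = 0.032). With this reference 6.47% of all genes did not overlap. Against the remaining members without Aqp1, a reference added after the data were seen, Prlr differed by -0.19 (exact permutation p = 0.13) and Calml4 by -0.32 (exact permutation p = 0.032), both with overlap, and Ttr was higher by 0.20 with no overlap (exact permutation p = 0.0079). Adjusted over all genes, the permutation p of Ttr, also at the smallest value the test allows, was 0.26. Here 4.43% of all genes did not overlap, and 10.1% had a permutation p below 0.05. The difference of Kl was -0.17 (exact permutation p = 0.071) against the 10 most abundant of the other genes, -0.13 (exact permutation p = 0.11) against their summed CPM, -0.12 (exact permutation p = 0.016) against all remaining members and -0.06 (exact permutation p = 0.32) against the remaining members without Aqp1. Against the mean of the 55 genes, leaving out each mouse in turn, it stayed between -0.26 and -0.18 with no overlap of the ages in each case. In these runs 5.89% to 11.6% of all genes did not overlap.

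Against Ttr alone, a ratio within the set that was chosen after the values were seen, there were 50.9, 50.5, 52.1, 54.96 and 46.5 CPM of Kl for every 1000 CPM of Ttr in the young mice and 42.8, 42.2, 41.6 and 47.0 in old mice 1, 3, 4 and 5. The ages overlapped by old mouse 5 and young mouse 5, and old mice 1, 3 and 4 lay below all young mice. For Prlr there were 27.2, 26.7, 27.9, 33.4 and 32.3 in the young and 21.8, 24.7, 19.4 and 26.3 in the old mice, with no overlap. Calml4 did not overlap either, at 2.97 to 4.33 in the young and 2.08 to 2.76 in the old mice. The share of all genes without overlap was not computed for this ratio. Aqp1 was at 5.68 to 9.58 in the young mice and at 7.43, 8.63, 10.002 and 22.0 in old mice 1, 3, 4 and 5, so old mouse 5 held more than any other mouse. Clic6 was at 37.1 to 43.5 in the young and 36.2 to 41.0 in the old mice.

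Among the other choroid plexus genes, 2 were higher and 2 lower in the old mice of 55 kept, with a median log2 fold change of 0.03. The share called was 7.27%, against 11% of all genes. Wfikkn2, a secreted protease inhibitor domain protein that binds myostatin and GDF11, rose from 3.43 ± 0.33 to 6.76 ± 1.67 CPM (SD, n = 5 and 4, log2 fold change 0.98, adjusted p = 0.00077, edgeR), and Trpv4, a calcium-permeable channel, by 0.39 on the log2 scale (adjusted p = 0.049, edgeR), a call that 15 of 20 other fits did not make. Kcne2, a potassium channel subunit of the apical membrane, fell from 4.95 ± 0.86 to 2.96 ± 0.33 CPM (log2 fold change -0.74, adjusted p = 0.0048, edgeR), and Slc29a4, a monoamine transporter, fell by 0.42 on the log2 scale (adjusted p = 0.0086, edgeR). The 5 most abundant, Enpp2, Trpm3, Strip2, Htr2c and Slc4a2, had log2 fold changes of -0.16 to -0.10 and were not called. Enpp2, Trpm3 and Htr2c are also made elsewhere in the brain.

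The genes that act with the 10 were counted by role, in lists of which 140 of 159 genes passed the filter and 15 were called higher and 5 lower in the old mice. Over all genes 6.09% were called higher and 4.89% lower, 11% together. By list the share was 35.3% for prolactin, 30% for BMP and Wnt and 17.2% for ion and water transport. It was 5.88% for Otx2 partners, 5.56% each for the klotho axis and folate, and 0% for thyroid hormone and retinol. Of the klotho and FGF23 axis, 18 of 27 were kept. Dmp1, a bone matrix protein, was higher (0.66, adjusted p = 0.0011, edgeR) and none was lower, while the FGF receptors Fgfr1, Fgfr2 and Fgfr3 had values of 0.07, 0.02 and 0.05 without a call, and Klb, the gene of beta-klotho, -0.30 without a call. Fgf23 did not pass the filter. Of 21 kept genes that carry or act on thyroid hormone and retinol with transthyretin, 0 were called by edgeR, with 4 at an unadjusted p below 0.05. Among all genes 25.5% lay below that p. Of 18 kept folate genes, Mthfd1l, a mitochondrial folate enzyme, was higher (0.26, adjusted p = 0.025, edgeR), and Folr2 did not pass the filter.

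Of 29 kept genes of ion and water transport into the cerebrospinal fluid, 2 were higher, Fxyd1, a regulator of the sodium pump (0.36, adjusted p = 0.0021, edgeR), and Trpv4. The 3 lower were Kcne2, Car4, a membrane-bound carbonic anhydrase (-0.44, adjusted p = 0.020, edgeR), and Slc4a7, a sodium bicarbonate cotransporter (-0.19, adjusted p = 0.040, edgeR). Of 17 kept genes downstream of the prolactin receptor, 6 were higher and 0 lower, among them Socs3 (0.72), Stat3 (0.43), Jak2 (0.27) and Ptpn11 (0.23). These signalling genes serve many cytokine receptors in every brain cell type, and Prlr itself had a log2 fold change of -0.33 without a call. Of 20 kept BMP and Wnt genes around Sostdc1, 5 were higher, Smad6 (0.77), Id1 (0.63), Bmp6 (0.56), Id3 (0.43) and Bmp7 (0.38), and Id2 was lower (-0.16). Of 17 kept homeobox partners of Otx2, Lhx5 was lower (-0.62, adjusted p = 0.031, edgeR). Most of these genes are known from other brain cells too, and the part of each cell type was not tested.

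The 10 genes outside the set whose log2 CPM was most like the members' mean over the 9 mice, by Pearson's r, were Cldn2 (0.96), Tmem132e (0.95), Irx2 (0.93), 1500015O10Rik (0.93), Ccdc24 (0.92), Mapk15 (0.91), Drc3 (0.91), Pxdc1 (0.91), Slc6a4 (0.91) and Fbxl21 (0.91). Cldn2, the claudin of the leaky tight junctions of this epithelium, and 1500015O10Rik, the gene of the secreted augurin, stand in the list of other choroid plexus genes, and the other 8 do not. The 99th percentile of r over all genes was 0.75 and the median -0.01, and the other choroid plexus list had a median r of 0.46, with 46 of its 55 genes above 0. None of these 10 genes was called with age. The members' mean log2 CPM was 3.11 in old mouse 5 and 3.39 to 3.76 in the other mice. These r values were not computed without old mouse 5. The points share libraries and scaling, and the likeness is a description.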

How the data were processed

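The data were RNA-seq libraries of brain from 5 young and 4 old male mice, 1 library a mouse. According to the study's methods the authors removed adapters and poor bases, mapped reads to GRCm38 with STAR and counted unique reads in exons per gene with featureCounts. The methods say that strand was used in counting where a library was strand-specific, and whether these libraries were is not given in the sources used here. The raw counts were used as deposited. The authors also deposited a normalized signal, which is each count divided by 1 size factor per library (DESeq2 is named in the submitters' processing notes), and TPM values scaled by gene length and library, and both served for alternatives and TPM for the order of levels. 1 column of per-sample values in each table matched no labelled mouse and was not used.

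Genes were kept by edgeR's filterByExpr (minimum count 10, total 15) and scaled by TMM, and old was compared with young by edgeR's quasi-likelihood test (edgeR 4.0.16, R 4.3.3, glmQLFit with robust dispersion, age alone) with Benjamini-Hochberg adjustment over all 18492 genes kept. The robust option was set after fits with and without it had been seen, to follow an earlier processing of these data, and the fit without it is an added alternative. Log2 CPM used a prior count of 2. Relative levels and correlations were tested by exact permutation over mice and, in place of the planned adjustment over the 10 genes, adjusted over all genes. The fit was tested on simulated counts. Members and gene lists were chosen with earlier results of these data known. Besides the 10 members, genes were named where called in a list (the 5 largest log2 fold changes at most), for the 5 most abundant other choroid plexus genes and for the 10 most alike, and 1 gene that this rule names is not reported here. Marker genes, the FGF receptors, Klb and genes that did not pass the filter were named after their values were seen. Gene positions are from GENCODE M21. Upstream sequences are from RefSeq (GRCm38.p6), with none listed for Ttr, Folr1, Clic6 and Sostdc1. Alternatives were other scalings, filters and tools (limma 3.58.1, DESeq2 1.42.0), the other choroid plexus genes as a covariate, other references, the replicate number as a block and leaving out each mouse.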

Additional observations from a re-analysis of the deposited data

Results flagged for a closer look

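Among 44 groups of 4 or 5 values (the log2 CPM and the relative level of each gene, and the mean log2 CPM of the 10 genes and of the other choroid plexus genes, at each age), 4 held a mouse far from the rest, judged by the gap to its nearest neighbour divided by the range of the group, where chance gives about 2.2. Kl relative to the other choroid plexus genes was 2.14 in young mouse 3 and 1.95 to 1.98 in the other young mice (gap 0.883 of the range). Aqp1 on the same scale was -1.01 in young mouse 5 and -0.59 to -0.42 in the other young mice (gap 0.713). Calml4 on the same scale was -1.53 in young mouse 2 and -1.94 to -1.85 in the other young mice (gap 0.779). The log2 CPM of Calml4 was -0.09 in old mouse 5 and 0.67 to 0.80 in the other old mice (gap 0.859), the mouse that was also lowest in 9 of the 10 genes.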

How the results depend on the processing

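The count of members called was 0 except without the filter on low counts (3), with the other choroid plexus genes as a covariate (2, Kl and Prlr) and when mice were left out in turn (0 to 1). The other choroid plexus genes called, 4, became 9 without the filter and 2 with a log2 fold change over 0.58 also asked for. Without the filter 8% of all genes were called, and with that fold change 2.5%. Wfikkn2, Kcne2 and Slc29a4 were called in all 20 other fits, and Trpv4 was not called in 15 of the 20 (adjusted p of 0.041 to 0.63 over the 20), among them the fit without robust dispersion (0.053), which called 3 of the list. On the log2(TPM + 1) and log2(TPM + 0.1) scales, which move the median log2 fold change of all genes to -0.14 and -0.16, the members' median was -0.24 and -0.27 in place of -0.09, and the pathway genes called were 7 on each in place of 20, 6 of them lower, while the share of all genes called went from 11% to 3.21% and 3.24%. On the log2(TPM + 1) scale 7 members correlated with the other choroid plexus genes after adjustment, in place of 0, with 45.9% of all genes doing so. The cause of these shifts was not tested.

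Log2 fold changes near 0 changed sign without a call. Ttr was -0.14 on each TPM scale, -0.023 with the covariate and -0.059 to 0.18 when mice were left out. Clic6 was -0.16 and -0.17 on the TPM scales, -0.011 on log2(normalized count + 1), -0.038 with the covariate and -0.071 to 0.14 when mice were left out. Slc4a5 was -0.14 and -0.17, -0.014, -0.079 and -0.10 to 0.17 in the same order. Sostdc1 was -0.26 to 0.022 when mice were left out. The directions of Kl, Prlr, Folr1, Otx2, Calml4 and Aqp1 were kept in each fit run. The added fit without robust dispersion called 0 members.

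Same-numbered young and old mice did not deviate together in every pair (correlations of 0.17, -0.12, 0.09 and -0.02), so the numbers were not taken as pairs. With a replicate block 0 members, 4 other choroid plexus genes and 23 pathway genes were called, beside 9.97% of all genes. The block form of the relative test, whose smallest p is 0.125, could not pass the threshold. Tests of relative levels between the ages with 8 mice cannot go below a permutation p of 0.018 to 0.029. Low counts limit Calml4 and Folr1 most.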
